A study of Mus musculus with 16 samples.

Results

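The comparison described here sets reporter-negative astrocytes of the spinal cord against those of the thalamus, in mice at postnatal day 15. It covers 8 of the 16 libraries of the series: 4 labelled spinal cord IL-33 negative and 4 labelled thalamus IL-33 negative, chosen by those labels. The other 8 are the reporter-positive libraries of the same 4 mice and regions. All mice were C57BL/6, were heterozygous for an IL-33 mCherry reporter and were positive for an Aldh1l1-GFP reporter, so both groups share both reporters and differ in the tissue they came from. Il33 encodes an alarmin cytokine of the interleukin-1 family, and Aldh1l1 encodes a folate enzyme widely used to mark astrocytes. The cells were flow-sorted, and each mouse gave 1 library of each region, so the mouse number ties the libraries into 4 pairs from the same animals. For the sort gates, the sources used here give no more than the reporter labels. The values are FPKM, fragments scaled to transcript length and to the mapped fragments of the library, and the sequencing depth behind them is unknown.

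Astrocytes arise from radial glia that were patterned along the head-to-tail axis before neurogenesis, and many keep part of that positional code as transcription factors. Hox genes, in 4 chromosomal clusters, mark the hindbrain and spinal cord, whereas homeobox genes such as Otx2 and Six3 mark the forebrain and midbrain. Astrocytes also clear glutamate, buffer potassium and carry transmitter receptors. Oligodendrocytes, which make myelin, and ependymal cells, the ciliated lining of the ventricles and central canal, are the other neuroectodermal glia of both tissues.

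Both groups carried the astrocyte genes their labels call for. All 20 genes of a list of pan-astrocyte markers passed the filter, and their summed level was 10670 to 12710 FPKM in the spinal cord libraries and 7714 to 10450 FPKM in the thalamus libraries. Aldh1l1 was at 19.7, 16.1, 22.5 and 21.5 FPKM in the spinal cord of mice 1 to 4 and at 14.7, 15.8, 31 and 38.3 FPKM in the thalamus. The ranges overlapped, and the difference of the means, -5.03 FPKM, had p = 0.457 in a two-sided exact permutation test over 70 assignments. Il33 itself was at 36.5, 21.6, 20.0 and 20.4 FPKM in the spinal cord and at 26.9, 15.2, 13.3 and 19 FPKM in the thalamus. It was higher in the spinal cord in 4 of 4 mice, by 6.01 FPKM on average, but the groups overlapped (p = 0.286 in the exact permutation test and p = 0.125, the smallest that 4 pairs allow, in an exact sign-flip test). Il33 RNA was thus measured in all 8 libraries of the negative gate. In the reporter-positive libraries Il33 was at 24.6 to 31.2 FPKM in the spinal cord and 23.8 to 31.98 FPKM in the thalamus. Within each region these ranges overlapped those of the negative libraries, so Il33 RNA did not separate the gates. The difference in Il33 level between the gates was not tested. Markers of other cell types were measured too. The summed level of 20 oligodendrocyte markers was 4145 to 4293 FPKM in the spinal cord and 552.5 to 1155 FPKM in the thalamus, and that of 20 ependymal markers was 176.0 to 231.1 FPKM and 502.8 to 866.0 FPKM. In such bulk libraries, fewer cells of a type and less RNA per cell cannot be told apart. Both libraries of mouse 1, the only mouse with Xist above 1 FPKM in these 8 libraries, had the highest summed FPKM of their groups (2233820 and 2344480, against 1233150 to 1635370 in the other 6), and mitochondrial transcripts made up 71.85% and 73.88% of it, against 46.67% to 62.56%.

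Of 39171 features in the table, 13793 reached 1 FPKM in at least 4 of the 8 libraries and were tested with limma on log2(FPKM + 1), with the mouse as a block. A feature was called where the Benjamini-Hochberg adjusted p was under 0.05. There were 177 called features, 1.28% of those tested, of which 107 (0.776%) were higher and 70 (0.508%) lower in the spinal cord. Of these, 154 were protein-coding genes. All 177 moved the same way in 4 of 4 mice, and in 176 the 8 values fell into non-overlapping groups, as they did in 10.1% of all tested features. The smallest called difference, in either direction, was 1.31 on the log2 scale. With 4 pairs and adjustment over 13793 features, smaller differences were unlikely to be called, so that size partly reflects the threshold. The median of the signed fold changes over all tested features was -0.0027. An unadjusted p under 0.05 was reached by 2041 features, 14.8% of those tested, the share against which such counts in a list are read. Leaving out a mouse changed the count. Without mouse 1 there were 49, without mouse 4 there were 2, and without mouse 2 or mouse 3 there were 0 (1689 and 1676 features then had an unadjusted p under 0.05). All 177 kept their direction, with an unadjusted p under 0.05, whichever mouse was left out, which describes features already chosen on all 4. Without the mouse block 413 features were called, and with no filter on low values 6 of 25672.

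**Figure D1:**
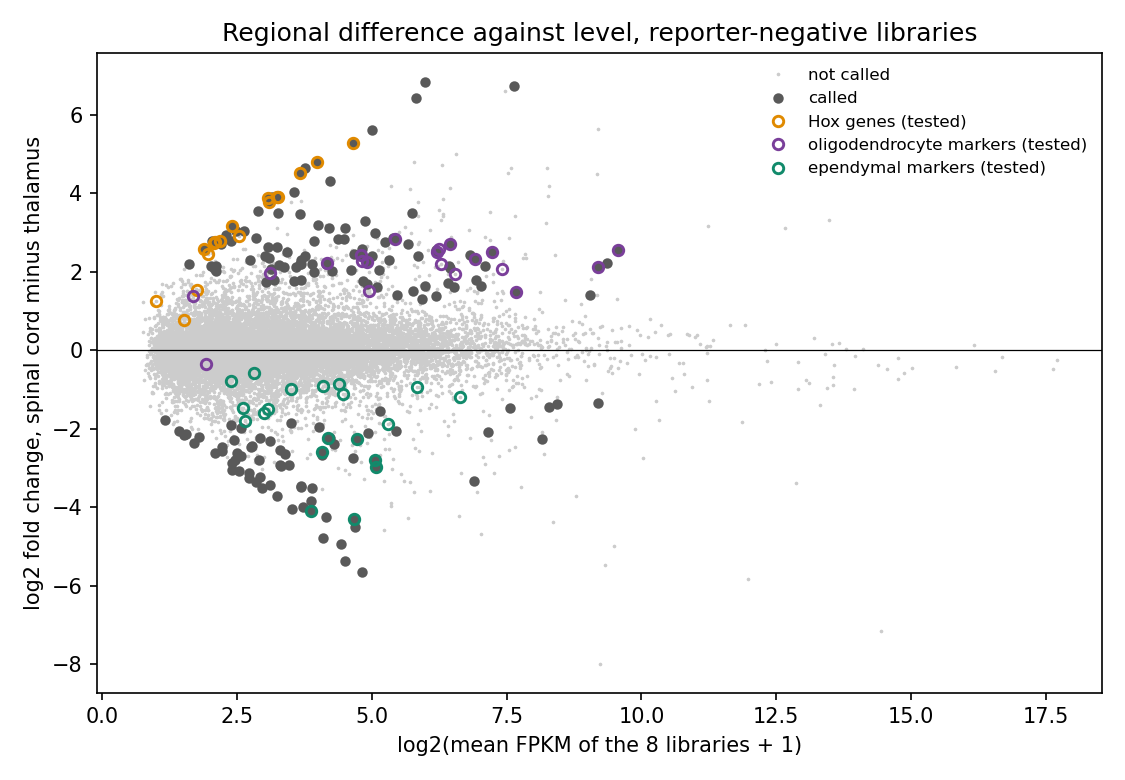
Each point is 1 of the 13793 tested features: the x axis is the log2 of the mean FPKM of the 8 reporter-negative libraries plus 1, and the y axis is the log2 fold change, spinal cord minus thalamus, on the log2(FPKM + 1) scale. The 177 called features are dark, and rings mark the tested Hox genes, which lie above 0, the oligodendrocyte markers, of which 19 of 20 lie above 0, and the ependymal markers, which all lie below 0.

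Hox transcripts separated the regions, with the thalamus libraries at or near 0. Hoxc8, a homeobox gene of the trunk (chr15:102990607-102994111, plus strand, GRCm38), was at 38.5, 44.4, 55.7 and 52.5 FPKM in the spinal cord of mice 1 to 4 and at 0.357, 0.163, 0.265 and 0.177 FPKM in the thalamus. Every spinal cord library was far above every thalamus library, and the log2 fold change was 5.29 ± 0.28 (SE, n = 4 pairs; limma, adjusted p = 0.0044). Hoxd8, its paralogue in another cluster, was at 36, 20.6, 29.8 and 31.8 FPKM in the spinal cord and at 0.0775, 0.163, 0.0483 and 0.0243 FPKM in the thalamus (log2 fold change 4.8 ± 0.30, adjusted p = 0.00707). Hoxa7 was at 17.2, 20.3, 28.3 and 28.1 FPKM against 0.0903, 0.0314 and 0.0548 FPKM, and it was listed at 0 in the thalamus of mouse 4 (log2 fold change 4.52 ± 0.30, adjusted p = 0.00735). It shares 20.4% of its exon bases with the antisense gene Hoxaas3, and the sources used here do not say whether the counting used strand. For these 3 genes the groups were apart by more than the spread within either.

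The list held 39 Hox genes, of which 38 were in the table and 17 passed the filter. All 17 had a positive fold change and 12 were called. Of the 17, 15 passed through the spinal cord libraries alone and so had to be higher there, and these counts are a description only. The level in the spinal cord varied among the members. After Hoxc8, Hoxd8 and Hoxa7, the next 4 by mean FPKM were Hoxb6, Hoxc6, Hoxa5 and Hoxc10: Hoxc6 was at 11.8 to 22.7 FPKM, Hoxb6 at 9.10 to 36.7 FPKM, Hoxc10 at 8.87 to 20.1 FPKM and Hoxa5 at 8.78 to 31.7 FPKM in the spinal cord. In the thalamus these 4 genes were at 0 to 0.235 FPKM. At the front of the clusters, Hoxb1 was at 0 to 0.236 FPKM in the spinal cord and was not tested. At the rear, Hoxd12 was listed at 0 in all 8 libraries and Hoxd13 at 0 to 0.0834 FPKM in the spinal cord. Hoxc12, also a rear gene, was at 3.28, 25, 6.23 and 4.01 FPKM in the spinal cord, with mouse 2 far above the others, and it was not called (log2 fold change 2.92 ± 0.50, adjusted p = 0.0596). Hoxb5, at 1.29 to 13.1 FPKM in the spinal cord and listed at 0 in 3 of 4 thalamus libraries, was not called either (2.45 ± 0.45, adjusted p = 0.0694). Among 9 tested genes of Hox cofactors and axial extension factors, 0 were called by limma, and 3 had an unadjusted p under 0.05.

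**Figure D2:**
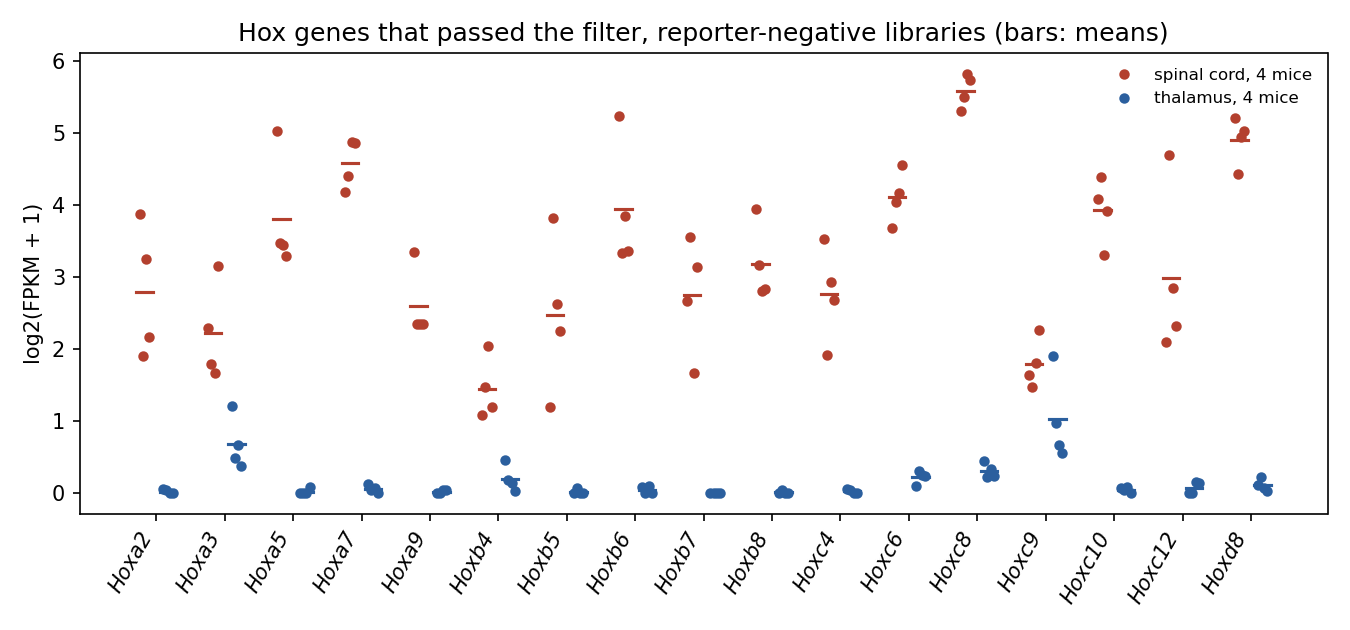
Level of the 17 tested Hox genes in each reporter-negative library, as log2(FPKM + 1), with spinal cord in red, thalamus in blue and short bars at the means of 4 mice. Hoxc8, Hoxd8 and Hoxa7 are the highest in the spinal cord, all 17 means are higher there, and most thalamus values lie near 0.

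The promoters of the called Hox genes were searched for the paired site of PBX and HOX proteins, TGATTNAT on either strand. RefSeq windows from 250 bases before to 50 bases after a transcription start (GRCm38.p6) were given for 7 of the 12 called Hox genes, and 1 of these 7 held the motif, against 3.74% of 27025 genes with a window. The match was in the window of Hoxa2, at chr6:52164782-52165081 on the minus strand. It is printed 5′ to 3′ with the match in capitals. A match in letters is a description of the sequence and does not show that a protein binds there.
Hoxa2: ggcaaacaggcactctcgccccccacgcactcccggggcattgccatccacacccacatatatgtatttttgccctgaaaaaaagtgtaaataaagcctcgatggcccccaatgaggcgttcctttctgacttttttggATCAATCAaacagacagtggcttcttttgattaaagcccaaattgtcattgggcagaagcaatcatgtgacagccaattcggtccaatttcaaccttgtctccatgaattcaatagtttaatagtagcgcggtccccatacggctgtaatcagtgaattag
Hoxa2, the most anterior Hox gene called here, was at 13.7, 2.74, 8.54 and 3.51 FPKM in the spinal cord and at 0 to 0.0365 FPKM in the thalamus (log2 fold change 2.78, adjusted p = 0.0418).

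Homeobox genes of the forebrain were among the genes lower in the spinal cord. Otx2, which specifies forebrain and midbrain and is also the 1 call among 5 tested choroid plexus markers, lies at chr14:48657677-48673819, minus strand. It was at 34.4, 43.9, 44.8 and 50.4 FPKM in the thalamus of mice 1 to 4 and at 0.0320, 0.0591, 0.0690 and 0.108 FPKM in the spinal cord. Its 4 thalamus values were close together, and it had the largest fall of the called protein-coding genes, with a log2 fold change of -5.37 ± 0.27 (SE, n = 4 pairs; adjusted p = 0.0044). Nr2e1, the nuclear receptor TLX of neural stem cells and astrocytes, was at 20.7, 61.7, 22.7 and 23.1 FPKM in the thalamus and at 0.0511, 0.111, 0.1004 and 0.0430 FPKM in the spinal cord (-4.79 ± 0.36, adjusted p = 0.00777). The thalamus library of mouse 2 was highest here, and again for Six3, a homeobox gene of the anterior forebrain, at 5.97, 61.8, 16.7 and 12.0 FPKM against 0.0992 to 0.165 FPKM in the spinal cord (-3.98 ± 0.53, adjusted p = 0.034). Barhl2, a homeobox gene of the diencephalon, ranged from 5.09 to 14.6 FPKM in the thalamus, against 0.105 to 0.329 FPKM in the spinal cord (-2.88 ± 0.37, adjusted p = 0.0338). These 3 homeobox genes were the only ones called of 26 tested forebrain and diencephalon factors, whose median log2 fold change was -0.271. Of the 26, 4 passed the filter through the thalamus libraries alone, these 3 among them, and so had to be lower in the spinal cord, which makes this count a description too. Tcf7l2, a Wnt effector abundant in the thalamus, was at 182 to 238 FPKM there and at 124 to 182 FPKM in the spinal cord and was not called (log2 fold change -0.51, adjusted p = 0.362). Zic1 was not called either, at 75.9 to 107 FPKM and 63.6 to 89.5 FPKM.

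On the spinal cord side, Nkx6-1, a homeobox gene of the ventral neural tube, was at 13.6, 8.40, 10.0 and 7.81 FPKM in the spinal cord and at 0.0381, 1.12, 0.184 and 0.153 FPKM in the thalamus (log2 fold change 3.03 ± 0.36, adjusted p = 0.0274). It was the 1 gene called of 8 tested dorsoventral patterning factors, and Olig2 (0.49, adjusted p = 0.33) and Nkx2-2 (0.94, adjusted p = 0.215) were not called. The Notch effector Hes5, a repressor that holds neural precursors undifferentiated, was at 17.2, 24.2, 24.4 and 16.7 FPKM in the thalamus and at 0.113, 0.288, 0.570 and 0.264 FPKM in the spinal cord (-4.04 ± 0.28, adjusted p = 0.00741), with 31.8% of its exon bases shared with another gene. It was the 1 call in the list of 16 tested Notch genes and also the 1 call among 23 astrocyte lineage factors. Hes5 passed the filter through the thalamus libraries alone and so had to be lower in the spinal cord, which makes these counts a description. Its relatives Hey1 (0.30, adjusted p = 0.614) and Heyl (-0.50, adjusted p = 0.392) were not called, and neither were the astrocyte regulators Nfia (-0.15, adjusted p = 0.833) and Nfix (0.29, adjusted p = 0.569).

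**Figure D3:**
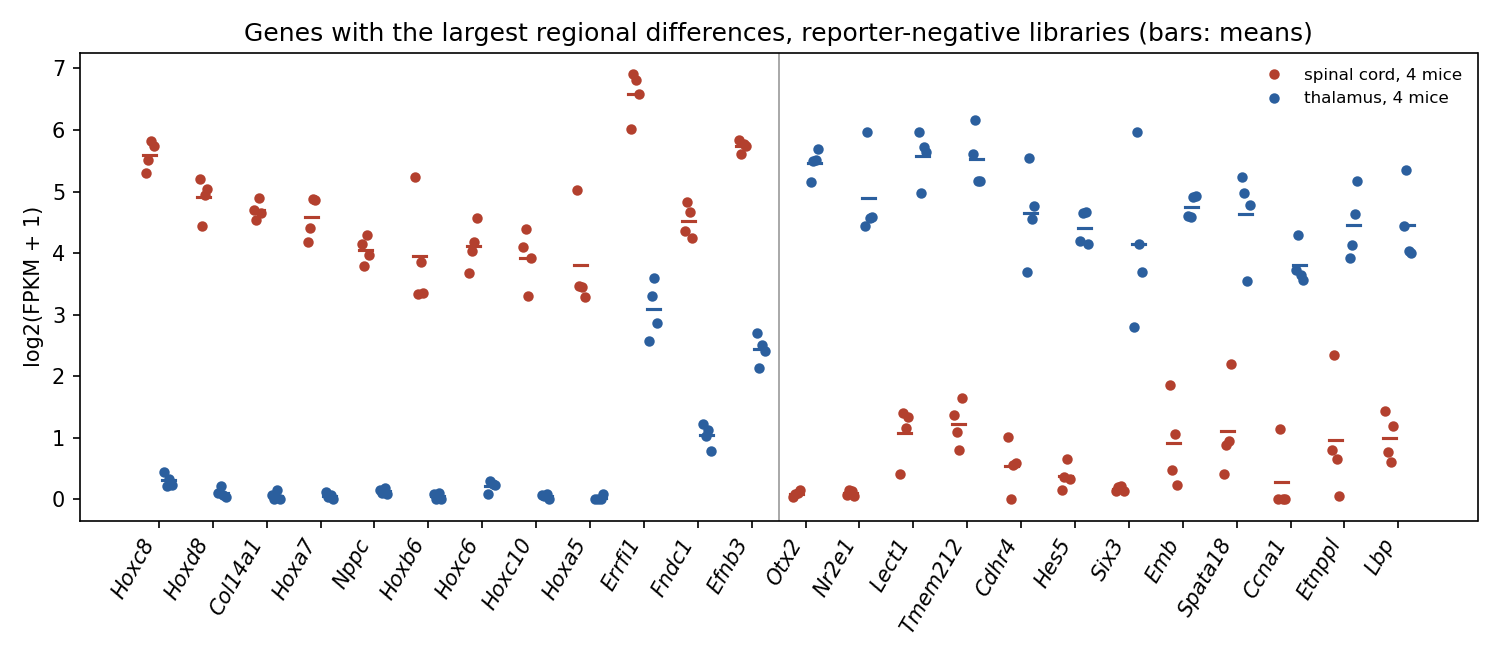
Level in each reporter-negative library of the 12 protein-coding genes in each direction with the largest called differences, among those whose higher group averaged 2 FPKM or more, as log2(FPKM + 1), with spinal cord in red, thalamus in blue and short bars at the means of 4 mice. Genes left of the vertical line were higher in the spinal cord and genes right of it in the thalamus, and for every gene shown the red and blue points do not overlap.

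Several abundant genes of astrocyte physiology were lower in the spinal cord, by smaller factors. Slc1a3, which encodes the glutamate transporter GLAST, was at 157, 168, 150 and 175 FPKM in the spinal cord and at 349, 654, 453 and 378 FPKM in the thalamus. The mean was 2.82-fold higher in the thalamus (log2 fold change -1.45 ± 0.23, adjusted p = 0.0468). Ptprz1, a receptor phosphatase of glia, was at 228, 205, 167 and 174 FPKM in the spinal cord and at 602, 516, 488 and 394 FPKM in the thalamus (-1.36 ± 0.18, adjusted p = 0.0349). Its secreted ligand pleiotrophin, Ptn, was at 327 ± 34.2 FPKM (mean ± SD, n = 4) in the spinal cord and 835 ± 148 FPKM in the thalamus (-1.34 ± 0.18, adjusted p = 0.0349). Receptor and ligand were both lower in every spinal cord library than in any thalamus library. Fam107a was at 83.2 ± 26.0 and 486 ± 376 FPKM, with the thalamus values running from 190 FPKM in mouse 1 to 1010 FPKM in mouse 4 (-2.27 ± 0.30, adjusted p = 0.034). The lipid phosphatase gene Ppap2b was at 98.4 ± 3.81 and 278 ± 47.6 FPKM (-1.47 ± 0.21, adjusted p = 0.0394). Fam107a and Slc1a3 were the 2 calls among the 20 pan-astrocyte markers, whose median log2 fold change was -0.00672. The other glutamate transporter of astrocytes, Slc1a2 (GLT-1), was at 2038 to 2099 FPKM in the spinal cord and 1250 to 1755 FPKM in the thalamus and was not called (0.41, adjusted p = 0.411). Gfap, the intermediate filament of white matter and reactive astrocytes, was at 97.8 to 192 FPKM in the spinal cord and 32.4 to 112 FPKM in the thalamus, and with overlapping ranges it was not called (1.24, adjusted p = 0.138).

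Transmitter receptor genes moved both ways. Gria4, an AMPA-type glutamate receptor subunit, was at 68.8, 69.5, 50.5 and 42.5 FPKM in the spinal cord and at 8.75, 7.08, 5.62 and 4.25 FPKM in the thalamus, a 9.00-fold difference of the means (log2 fold change 2.99 ± 0.22, adjusted p = 0.00777). Gria3, another AMPA subunit, was at 11.2 to 31.7 and 2.95 to 3.35 FPKM (2.39 ± 0.32, adjusted p = 0.034). The metabotropic glutamate receptor gene Grm3 ran the other way, at 5.40, 5.58, 5.84 and 4.92 FPKM in the spinal cord and 19.7, 38, 32.9 and 28.7 FPKM in the thalamus (-2.23 ± 0.27, adjusted p = 0.0274). So did Gabbr2, a subunit of the GABA-B receptor, at 52.4 ± 12.2 FPKM (SD, n = 4) against 231 ± 75.9 FPKM (-2.08 ± 0.24, adjusted p = 0.0255). These 4 were the calls among 35 tested receptor genes, whose median was -0.0283. Etnppl, a phosphoethanolamine lyase of grey matter astrocytes, was at 0.0438 to 4.07 FPKM in the spinal cord and 14.2 to 35 FPKM in the thalamus (-3.50 ± 0.55, adjusted p = 0.0491), and with Grm3 it made up the 2 calls among 16 markers of protoplasmic astrocytes. That list held 7 positive and 9 negative fold changes, with a median of -0.196. Of 14 tested markers of fibrous, white matter astrocytes, 0 were called by limma with the block, while 2 had positive and 6 negative fold changes with an unadjusted p under 0.05, against 14.8% of all tested features with such a p in either direction.

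Genes of the oligodendrocyte lineage were higher in the spinal cord libraries. Cldn11, the tight junction protein of myelin, was at 176, 178, 136 and 111 FPKM in the spinal cord and at 34.2, 10.2, 25.5 and 23.8 FPKM in the thalamus, and the lowest spinal cord value was above the highest thalamus value (log2 fold change 2.72 ± 0.35, adjusted p = 0.0338). Mbp, at 950 ± 140 and 224 ± 69.997 FPKM (SD, n = 4), had a log2 fold change of 2.13 ± 0.21 (adjusted p = 0.0164), and Cnp, at 300 ± 20.5 and 109 ± 26.6 FPKM, one of 1.48 ± 0.20 (adjusted p = 0.034). Over all tested features 0.776% were called higher. Of 20 tested oligodendrocyte markers 11 were called, all higher, and the median log2 fold change of the 20 was 2.23. Enpp6, of newly forming oligodendrocytes, was among the 11 (2.51 ± 0.29, adjusted p = 0.0244). Trf was called as well (2.83, adjusted p = 0.0172), although 63.5% of its exon bases overlap another gene. Sox10, the transcription factor of the lineage, was at 101, 111, 98.9 and 74.2 FPKM in the spinal cord and 21.7, 19.1, 18.5 and 11.5 FPKM in the thalamus (2.40 ± 0.21, adjusted p = 0.0113). Of 10 tested precursor markers 6 were called, all higher: beside Sox10, Neu4 (2.63), Bmp4 (2.54), Vcan (2.42), Gpr17 (2.30) and C1ql1 (2.01). Olig1 (0.45, adjusted p = 0.451) and Olig2, which astrocytes also express, were not. Without the mouse block 16 oligodendrocyte markers were called, and in a fit over all 16 libraries 19 were.

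Tubb4a and Sirt2, a tubulin and a deacetylase known from myelin but on none of the lists, were among the 6 most abundant genes that were higher, at 1077 ± 77.8 and 764 ± 186 FPKM in the spinal cord and 232 ± 48.8 and 285 ± 73.2 FPKM in the thalamus (2.23, adjusted p = 0.0153 and 1.42, adjusted p = 0.0344). The part of oligodendrocyte RNA in the other differences was not tested. In the reporter-positive libraries the summed level of the same 20 markers was 209.3 to 241.6 FPKM in the spinal cord and 104.4 to 151.8 FPKM in the thalamus, and none of the 20 was below 1 FPKM in all 8 reporter-negative libraries. Promoter windows of the called oligodendrocyte markers were searched for the SOX motif ACAAAG on either strand. It was in 2 of 6 genes with a window, Cnp and Mag, against 21% of all genes with one. Here too a match describes the sequence only, and whether SOX10 acts on these genes was not tested. The windows are chr11:100574689-100574988, plus strand, for Cnp and chr7:30914814-30915113, minus strand, for Mag, with the match in capitals.
Cnp: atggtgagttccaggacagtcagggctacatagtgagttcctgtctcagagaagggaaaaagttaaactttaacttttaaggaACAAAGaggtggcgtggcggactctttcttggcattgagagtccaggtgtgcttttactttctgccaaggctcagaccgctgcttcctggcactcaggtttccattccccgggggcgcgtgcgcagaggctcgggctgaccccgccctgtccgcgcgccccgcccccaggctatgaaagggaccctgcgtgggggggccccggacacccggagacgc
Mag: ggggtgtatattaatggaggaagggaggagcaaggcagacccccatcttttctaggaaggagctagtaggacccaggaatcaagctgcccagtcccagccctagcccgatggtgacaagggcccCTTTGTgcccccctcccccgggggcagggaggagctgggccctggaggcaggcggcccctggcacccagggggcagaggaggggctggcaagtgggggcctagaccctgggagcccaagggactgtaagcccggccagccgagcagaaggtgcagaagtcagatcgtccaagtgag
Mag, a myelin adhesion protein, had a log2 fold change of 2.42 (adjusted p = 0.0397).

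Genes of motile cilia went the other way. Tmem212, a membrane protein gene of ciliated cells, was at 1.57, 1.15, 0.750 and 2.12 FPKM in the spinal cord and at 47.8, 70.8, 34.9 and 35.2 FPKM in the thalamus (log2 fold change -4.30 ± 0.33, adjusted p = 0.00777). Rsph1, a protein of the radial spokes of the axoneme, was at 3.81, 13.3, 8.76 and 5.71 FPKM against 54.1, 67.4, 46.4 and 58.0 FPKM (-2.80 ± 0.31, adjusted p = 0.0223). Cdhr4 was at 0 to 1.01 FPKM in the spinal cord and 12.0 to 45.7 FPKM in the thalamus (-4.11, adjusted p = 0.0265), and Rarres2, which encodes chemerin, at 2.44 to 8.69 and 36.6 to 76.2 FPKM (-2.96, adjusted p = 0.0401); both share over 10% of their exon bases with another gene. Of 20 tested ependymal markers 7 were called, all lower, all 20 had a negative fold change, and the median was -1.54. Over all tested features 0.508% were called lower. The most abundant markers were not called: Cfap54 was at 36.3 to 69.2 FPKM and 91.7 to 219 FPKM (-1.20, adjusted p = 0.106) and Enkur at 25.7 to 47.6 and 45.4 to 111 FPKM (-0.92, adjusted p = 0.126), with overlapping ranges for Enkur. A fit over all 16 libraries called 15 of the 20, and log2(FPKM + 0.1) called 3. The RFX motif GTTGCCA, known from the binding sites of the factors that drive cilium genes, was in the window of 0 of the 5 called ependymal markers that had one and of 5.02% of all genes.

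Several genes on none of the lists were also high in every thalamus library and low in the spinal cord. Spata18, a mitochondrial quality control gene, was at 0.338 to 3.58 FPKM in the spinal cord and 10.7 to 36.6 FPKM in the thalamus (-3.52, adjusted p = 0.034). Ccna1, the meiotic cyclin, was listed at 0 in 3 spinal cord libraries and at 1.22 FPKM in mouse 2, and it was at 10.8 to 18.6 FPKM in the thalamus (-3.52, adjusted p = 0.00995), with 10.1% of its exon bases shared with another gene. Emb, an immunoglobulin-family adhesion protein, was at 0.181 to 2.63 and 23.1 to 29.3 FPKM (-3.85 ± 0.39, adjusted p = 0.0172). Lbp, the lipopolysaccharide-binding protein, was at 0.529 to 1.71 and 15 to 40.002 FPKM (-3.45, adjusted p = 0.0224). Lect1, which encodes the angiogenesis inhibitor chondromodulin, was at 0.329, 1.64, 1.24 and 1.54 FPKM in the spinal cord and at 61.6, 30.5, 51.7 and 48.9 FPKM in the thalamus (-4.50 ± 0.38, adjusted p = 0.0104). Choroid plexus markers were uneven within the thalamus group: their summed level was 89.59 to 810.9 FPKM there and 112.6 to 189.8 FPKM in the spinal cord. Ttr, the transthyretin gene that defines that epithelium and was looked at after its values were seen, was at 469, 599, 0.397 and 11.4 FPKM in the thalamus of mice 1 to 4 and at 0.154 to 0.665 FPKM in the spinal cord. In the thalamus of mice 1 to 4, Lbp was at 20.7, 40.002, 15.4 and 15 FPKM and Spata18 at 36.6, 30.6, 10.7 and 26.4 FPKM. In the same libraries Ccna1 was at 12.2, 18.6, 11.5 and 10.8 FPKM and Emb at 23.2, 23.1, 29.1 and 29.3 FPKM. The part that ependymal or choroid plexus RNA has in the differences of these genes was not tested.

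**Figure D4:**
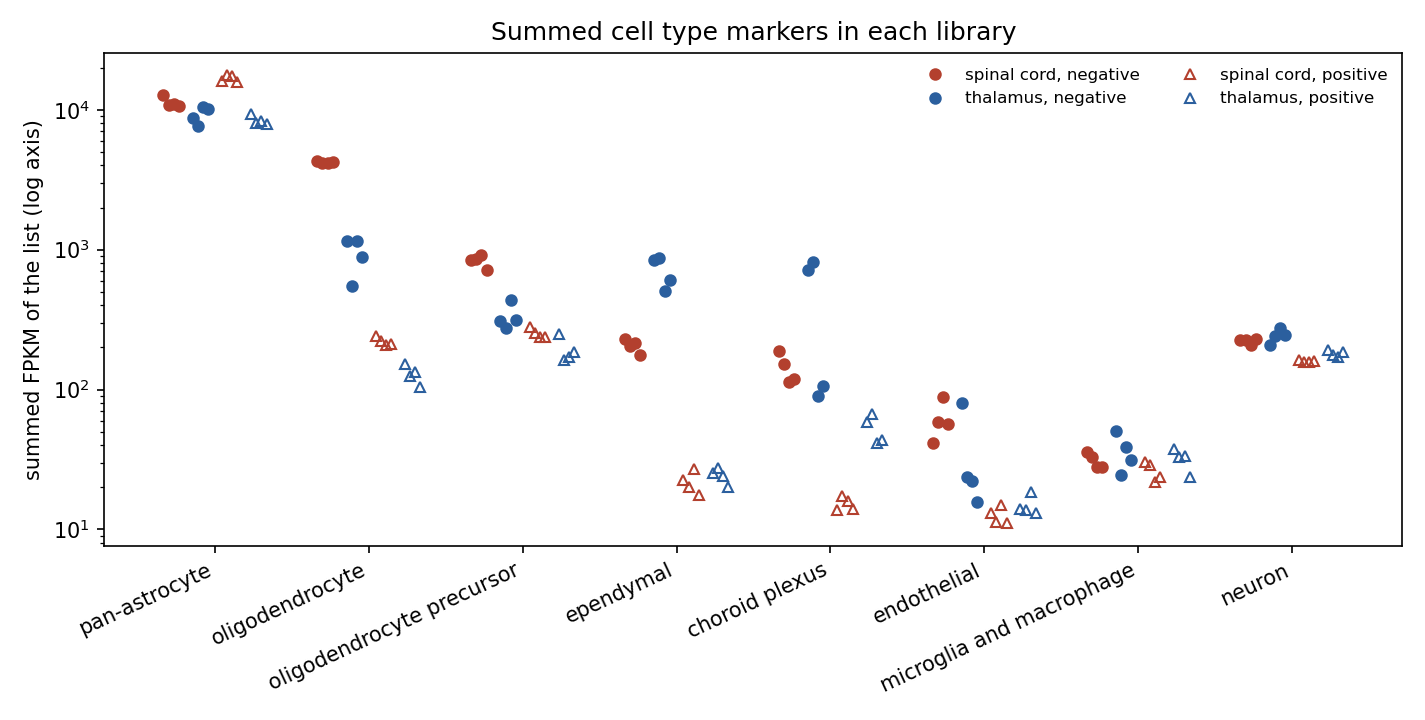
Summed FPKM of 8 cell type marker lists in each library, on a log axis, with reporter-negative libraries as filled circles, reporter-positive ones as open triangles, spinal cord in red and thalamus in blue. In the negative libraries oligodendrocyte sums are 4145 to 4293 FPKM in the spinal cord and at most 1155 FPKM in the thalamus, ependymal sums are at most 231.1 FPKM against at least 502.8 FPKM, and both lists are far lower in all positive libraries.

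Signals between cells and the extracellular matrix gave a few large differences each. Col14a1, a fibril-associated collagen, was at 25.1, 22.1, 28.6 and 24.1 FPKM in the spinal cord and at 0.0471, 0, 0.115 and 0.00696 FPKM in the thalamus (log2 fold change 4.63 ± 0.28, adjusted p = 0.00657). Col23a1 was the other call among 20 tested collagen genes (2.18 ± 0.31, adjusted p = 0.04), and the list's median was 0.413. Of these 2 calls, Col14a1 passed the filter through the spinal cord libraries alone and so had to be higher there. Nppc, the C-type natriuretic peptide, was at 12.9 to 18.5 FPKM and 0.0667 to 0.136 FPKM (3.91 ± 0.28, adjusted p = 0.00777), and Fndc1 at 18.0 to 27.3 and 0.729 to 1.34 FPKM (3.48 ± 0.28, adjusted p = 0.00995). Errfi1, a feedback inhibitor of the EGF receptor, was at 63.5, 119, 111 and 95.4 FPKM in the spinal cord and 4.97, 8.91, 11.2 and 6.25 FPKM in the thalamus (3.49 ± 0.22, adjusted p = 0.00707). Of 51 tested axon guidance genes 3 were called, all higher, with a median of 0.125: the ligand Efnb3, at 56.1, 47.9, 53.4 and 52.5 against 5.52, 3.38, 4.72 and 4.31 FPKM (3.30 ± 0.23, adjusted p = 0.00741), the Slit receptor Robo2, at 21.3, 68.6, 22.1 and 31.6 against 5.54, 3.67, 3.06 and 2.51 FPKM (2.85 ± 0.40, adjusted p = 0.0369), and the semaphorin Sema3d (2.11, adjusted p = 0.0369). Without the mouse block 8 axon guidance genes were called, all higher. Of the 51 tested, 3 passed the filter through the spinal cord libraries alone, Sema3d among them, and so had to be higher there. In the thalamus libraries alone, 1 passed.

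Among morphogen pathways, Rspo3, a secreted Wnt amplifier, was at 1.12, 2.33, 1.17 and 1.74 FPKM in the spinal cord and 14.9, 18.1, 17.1 and 23.9 FPKM in the thalamus (log2 fold change -2.92 ± 0.28, adjusted p = 0.0155), with 13.1% of its exon bases shared with another gene. The Wnt receptor gene Fzd10 was lower as well (-2.22 ± 0.30, adjusted p = 0.0349). These were the 2 calls among 25 Wnt pathway genes, whose median was -0.441, and Wnt7a was not called (-0.41, adjusted p = 0.657). Aldh1a2, a retinoic acid synthesising enzyme, was at 11.7, 10.0, 7.78 and 6.35 FPKM in the spinal cord and at 0.685, 0.0282, 0.165 and 0 FPKM in the thalamus (3.03 ± 0.29, adjusted p = 0.0153), the 1 call among 9 retinoic acid genes. Having passed the filter through the spinal cord libraries alone, Aldh1a2 had to be higher there, and this count is a description. Bmp4, at 84.7, 170, 136 and 102 against 31.4, 16.8, 20.7 and 13.3 FPKM, and Bmp6 (2.01 ± 0.29, adjusted p = 0.0401) were the 2 calls among 16 BMP and TGF-beta genes, and the receptors Bmpr1a (-0.12, adjusted p = 0.868) and Bmpr2 (-0.04, adjusted p = 0.968) were not called. Bmp4 is also on the list of oligodendrocyte precursor markers.

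The remaining lists gave 0 to 2 calls each. The neuronal glutamate transporter Slc1a1 was higher (2.05, adjusted p = 0.0453, with 31.9% of its exon bases shared), as were the glial connexin Gjc3 (2.14, adjusted p = 0.024) and the apolipoprotein Apoc1 (1.61, adjusted p = 0.0346). By limma with the block, 0 genes were called among 39 tested nuclear oxidative phosphorylation genes, 19 glycolysis genes, 41 cytosolic ribosomal protein genes, 28 potassium channel and ion transport genes, 21 cell cycle genes and 18 reactive astrocyte genes. Over all tested features, 14.8% had an unadjusted p under 0.05. For oxidative phosphorylation 36 of 39 fold changes were positive with a median of 0.428, and 6 had an unadjusted p under 0.05. For glycolysis 16 of 19 were positive with a median of 0.556, and 6 had an unadjusted p under 0.05. The corresponding numbers of genes with an unadjusted p under 0.05 were 0 for ribosomal proteins, 8 for potassium channels and ion transport, 8 for the cell cycle and 7 for reactive astrocytes. Marker lists of neurons (10 tested), microglia and macrophages (9), endothelium (13) and mural cells (9) also gave 0 calls by limma. Of these, 1 neuronal, 1 microglial and 0 mural markers had an unadjusted p under 0.05, and 7 endothelial markers were higher with an unadjusted p under 0.05. The summed endothelial level was 41.60 to 87.78 FPKM in the spinal cord and 15.80 to 79.91 FPKM in the thalamus.

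The reporter-positive libraries of the same mice and regions show which of these differences were found in the other gate. The same 13793 features were tested there, and 3563 (25.8%) were called, 2064 (15%) higher and 1499 (10.9%) lower in the spinal cord. Of the 107 features higher in the negative spinal cord libraries, 48 were also called higher in the positive ones, 3 were called lower and 56 were not called. The 3 with opposite calls were Gjc3, Opcml and the antisense RNA 2700069I18Rik, the last 2 named after their values were seen. Of the 70 lower features, 31 were also called lower in the positive libraries, 0 were called higher and 39 were not called. The difference between the gates was itself tested in a fit over 16 libraries, which called 397 features (2.88%), among them 98 of the 177. Since the negative libraries chose the 177, that count is a description.

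By this test and the positive comparison, the 177 were counted in 5 patterns. In 67 of the 177 the regional difference was called in the same direction in both gates and the gate difference was not called. All 12 called Hox genes were of this kind: Hoxc8 had a log2 fold change of 4.90 ± 0.12 in the positive libraries and Hoxa7 one of 4.55 ± 0.13. So were Otx2 (-5.02 ± 0.11), Nr2e1 (-3.99 ± 0.10), Six3 (-3.29 ± 0.26), Hes5 (-3.16 ± 0.11), Nkx6-1 (3.06 ± 0.13), Gria4 (3.62 ± 0.17), Robo2 (2.88 ± 0.19), Errfi1 (3.71 ± 0.14), Slc1a3 (-1.56 ± 0.11), Ptprz1 (-1.19 ± 0.13), Grm3 (-1.75 ± 0.09) and Etnppl (-2.79 ± 0.16). A gate difference that was not called does not show that the effects are equal: for Nr2e1 the estimate was -0.79 ± 0.38 and for Gria4 -0.62 ± 0.28. In 83 of the 177 the gate difference was called and the positive comparison was not. In 12 both were called in the same direction, in 3 in opposite directions, and in the other 12 neither was called. Col14a1 was at 0.101 to 0.206 FPKM in the positive spinal cord libraries and its gate difference was 4.73 ± 0.22 (adjusted p = 7e-07). Tmem212 (-3.99 ± 0.35, adjusted p = 0.000143), Efnb3 (3.22 ± 0.27, adjusted p = 7.59e-05), Nppc (3.63 ± 0.27, adjusted p = 3.7e-05) and Fndc1 (3.60 ± 0.23, adjusted p = 1.37e-05) followed the same pattern. Among the marker lists, the gate difference was called for 12 of 20 oligodendrocyte and 10 of 20 ependymal markers, and for 0 of the 17 tested Hox genes. For Ptn the gate difference was -1.10 ± 0.21 (adjusted p = 0.0181), whereas for its receptor Ptprz1 the gate difference was -0.17 ± 0.20 (adjusted p = 0.735). Bmp4, Aldh1a2 and Sox10 were near 0 in the positive libraries of both regions, at no more than 1.48 FPKM.

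**Figure D5:**
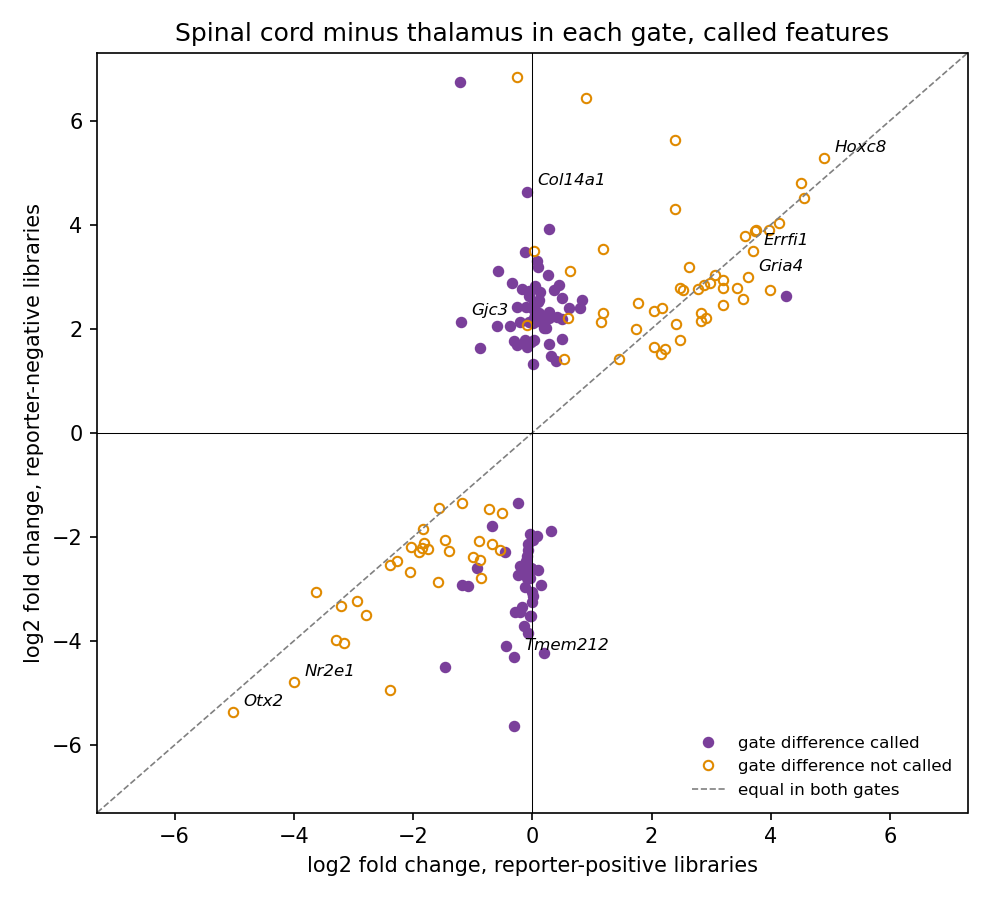
Log2 fold change, spinal cord minus thalamus, of the 177 called features in the reporter-positive libraries (x axis) and the reporter-negative libraries (y axis), with 4 libraries per group, filled where the gate difference was called (98) and open where it was not (79). Hox genes, Otx2, Nr2e1, Errfi1 and Gria4 lie near the dashed line of equal differences, whereas Col14a1 and Tmem212 lie near 0 on the x axis.

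Some genes with a called gate difference were not called in the negative libraries. Slc38a1, a glutamine transporter, was at 20.6 to 35.3 FPKM in the negative spinal cord and 48.9 to 73.0 FPKM in the negative thalamus libraries and was not called there (log2 fold change -0.94, adjusted p = 0.146). In the positive libraries it was at 13.8 to 15.6 FPKM in the spinal cord and 0.345 to 0.684 FPKM in the thalamus (3.38 ± 0.11, adjusted p = 0.000199), so the gate difference was -4.32 ± 0.23 (adjusted p = 2.46e-06). Gdf10, a secreted factor of the BMP family, was at 9.89 to 44.3 FPKM in the negative spinal cord and 10.4 to 20.6 FPKM in the negative thalamus libraries (0.24, adjusted p = 0.851). In the positive gate it was at 0.895 to 1.26 and 15 to 26.7 FPKM, and the gate difference was 3.62 ± 0.48 (adjusted p = 0.00241).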

How the data were processed

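Astrocytes sorted from 4 mice were sequenced, and the authors deposited 1 table of FPKM values for 39171 features in 16 libraries. Per the submitters' processing notes, TopHat2 2.0.11, Bowtie2 2.2.3, HTSeq 0.6.1p1, Cufflinks and Cuffnorm were used with GRCm38. The sources used here do not say which of these made the FPKM, or whether counting used strand. Per the labels' protocols, RNA was amplified with the NuGEN RNA-Seq V2 kit. Of the features, 16252 had no symbol in the file, and 15208 of these were named from GENCODE mouse release 21, the source of the coordinates printed, on GRCm38.

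From the FPKM, log2(FPKM + 1) was computed, so fold changes understate those of low genes. limma 3.58.1 (R 4.3.3, with an intensity trend) was fitted on the 8 reporter-negative libraries with mouse and region as terms, for features at 1 FPKM or more in at least 4 libraries, with Benjamini-Hochberg adjustment over 13793 features. The fit was tested on simulated data. The difference between gates was fitted over all 16 libraries, which share the negative libraries and 1 estimate of the spread. Where the positive libraries vary less, that estimate can understate the spread of the negative ones. For Col14a1 the SE was 0.275 in the negative comparison, 0.0911 in the positive one and 0.218 for the gate difference. Il33 and Aldh1l1 were tested by exact permutation.

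The labels give each mouse number 1 library per group, so the pairing comes from the animals. Same-numbered libraries' deviations from their group means correlated at 0.0419 to 0.106, and those of the other 12 combinations at -0.112 to 0.0804.

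Named genes were Il33, Aldh1l1, the 12 largest called protein-coding differences and the 6 most abundant called genes in each direction, up to 4 called members per direction and 2 uncalled members of each list, and the 6 largest gate differences in each direction. Hoxb1, Hoxd12, Hoxd13, Hoxa2, Mag, Gpr17, Ttr and Xist were named after their values were seen. Genes and lists (33 gene lists and 14 marker lists) were chosen with earlier results of these data known. Alternatives were the block, pseudocount, filter, scaling, feature set, libraries fitted and each mouse left out. Some genes are not reported here. A deposited table comparing the gates was not used.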

Additional observations from a re-analysis of the deposited data

Results flagged for a closer look

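Among the 58 groups of 4 libraries whose values are printed, 4 held a library that stood far from the other 3, where chance gives about 1 group in 20. These were Il33 at 36.5 FPKM in the spinal cord of mouse 1, Nr2e1 at 61.7 FPKM in the thalamus of mouse 2, Hoxc12 at 24.98 FPKM in the spinal cord of mouse 2 and Nkx6-1 at 1.12 FPKM in the thalamus of mouse 2.

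For 37 of the 84 named genes that were tested, the difference between spinal cord and thalamus was not the same in the reporter-negative and reporter-positive libraries (limma, adjusted p under 0.05). Over all tested features the share was 2.88%. The named genes were chosen partly by this test and partly by calls in the negative libraries, so the count is a description only. Values are the log2 difference in the negative minus that in the positive libraries. Among genes of oligodendrocytes, their precursors and myelin, the value was 1.81 for Tubb4a, 1.16 for Cnp, 2.41 for Enpp6, 2.39 for Trf, 2.78 for Cldn11, 2.52 for Mag, 2.40 for Sox10, 2.69 for Neu4, 2.18 for Gpr17, 2.68 for Vcan, 2.43 for Bmp4 and 1.81 for C1ql1. Among the ependymal markers it was -3.99 for Tmem212, -3.67 for Cdhr4, -2.84 for Rarres2 and -2.71 for Rsph1. It was also negative for Emb (-3.78), Spata18 (-3.49), Ccna1 (-3.49), Lbp (-3.24), Lect1 (-3.03), Rspo3 (-1.73), Ptn (-1.10), Gfap (-1.92) and Slc38a1 (-4.32). Among matrix, signal and guidance genes the value was 4.73 for Col14a1, 3.63 for Nppc, 3.60 for Fndc1, 1.68 for Col23a1, 3.22 for Efnb3, 2.10 for Sema3d, 2.78 for Aldh1a2, 1.78 for Bmp6 and 3.62 for Gdf10. For genes of transport, receptors and junctions it was 2.42 for Slc1a1, 1.59 for Gria3 and 3.34 for Gjc3.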

How the results depend on the processing

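The count of 177 called features (107 higher, 70 lower) depended on the fit. Without the mouse block it was 413 (254 higher, 159 lower), and 170 of the 177 were among them. A fit over all 16 libraries called 1594 (832 higher, 762 lower), all 177 among them. With no filter 6 of 25672 features were called (5 higher, 1 lower), with protein-coding genes only 330 of 11702 (201 higher, 129 lower), and without features listed at 0 beside a library at 100 FPKM or more 269 of 13613 (165 higher, 104 lower). Leaving out a mouse gave 0 to 49 calls by limma (0 to 38 higher, 0 to 11 lower), with 1638 to 1963 features at an unadjusted p under 0.05. The gate test called 397 features, and 76 to 309 without a mouse. The directions of Il33 and Aldh1l1 and of the 60 called named genes did not reverse under the alternatives run. Of the 89 named genes not called, 20 changed sign under at least 1 alternative. In the text these were Nfia, Bmpr1a, Bmpr2 and Gdf10, whose log2 fold changes without a mouse ran from -0.271 to 0.00625, -0.239 to 0.0012, -0.154 to 0.042 and -0.166 to 0.516. Of the 60 called named genes, 60 kept their call without the block, 49 with a pseudocount of 0.1 FPKM, 5 with no filter, 27 without mouse 1 and 0 without mouse 2, 3 or 4. The depth is unknown, so the precision of low values is too, and 0 of 180 features listed at 0 beside a library at 100 FPKM or more were called.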
